A study of Mus musculus with 19 samples.

Results

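The circadian clock genes described here are Per1, Per2, Per3, Cry1, Arntl (also written Bmal1), Clock, Npas2, Nr1d1, Nr1d2 and Dbp, measured in mouse prostate after feeding with control diet or with a high fat diet (HFD). They are 10 of the 11728 genes that could be tested. The array carried 24 probe sets that its annotation gave to one of these genes alone, out of 45037 that were not controls, and the probe set with the highest mean over the 19 arrays stood for each gene. All 10 chosen probe sets passed the filter on low values, as did 22 of the 24. Values are on a log2 scale, so a difference of 1 is a doubling, and they are compared only within a probe set.

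The arrays hold total RNA of 2 prostate lobes, the ventral (VP) and the dorsolateral (DLP), taken from C57BL/6J mice, 5 per diet, that were 8 weeks old when 12 weeks of free feeding on either diet began. VP was measured on 5 control and 5 HFD arrays, DLP on 5 control and 4 HFD arrays. All groups share the strain, the age and the length of feeding, and whole lobes were taken, so fewer cells of a type and less RNA per cell cannot be told apart. The labels name neither the mouse behind each array nor the hour of dissection. A p-value therefore sets a difference against the spread between these arrays, which the main tests treated as independent. The part of the hour in any diet difference was not tested.

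The clock is a transcriptional loop found in most cells. The proteins of Arntl and Clock, or its relative Npas2, bind E-boxes and switch on the Per, Cry, Nr1d and Dbp genes. PER and CRY proteins then repress that pair, REV-ERB proteins (Nr1d1 and Nr1d2) repress Arntl, and DBP acts on D-boxes in other genes, among them Per genes. Transcripts of the activating side and of its targets peak at different hours of the day, so the level of each depends on when a tissue is taken, and feeding times can shift the loop in organs outside the brain.

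The 5 stretches of promoter shown next were chosen because they carry the letters through which the loop is described above. They were read from RefSeq gene starts on GRCm38.p6, in windows from 250 bases before to 50 bases after each start. Windows were matched for 9 of the 10 genes, all but Per2, and some genes had several, giving 13. Capitals mark the motif searched for: the REV-ERB/ROR element TAGGTCA in Arntl, the D-box TTATGTAA in Per3, the E-box CACGTG in Cry1 and Per1, and AACGTG, which is the E-prime box CACGTT on the opposite strand, in Cry1 and Nr1d1.
Arntl, chr7:113207531-113207560, + strand: aggcagaaagTAGGTCAgggacggaggtgc
Per3, chr4:151044810-151044877, - strand: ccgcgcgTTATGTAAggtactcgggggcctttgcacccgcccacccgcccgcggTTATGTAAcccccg
Cry1, chr10:85185102-85185140, - strand: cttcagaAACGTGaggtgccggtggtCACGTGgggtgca
Per1, chr11:69098771-69098827, + strand: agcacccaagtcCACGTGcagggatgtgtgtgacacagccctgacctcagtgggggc
Nr1d1, chr11:98775385-98775422, - strand: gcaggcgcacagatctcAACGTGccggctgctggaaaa

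Each sequence is written 5′ to 3′ on the strand of its gene. The Arntl stretch begins 20 bases after the start of transcription, and the others lie before it, the 2 D-boxes of Per3 within 212 bases of its start. Both strands of all 32851 windows in the table were searched. TAGGTCA was found in 2.61% of windows, TTATGTAA in 0.938%, CACGTG in 7.15% and CACGTT in 4.68%. The core AGGTCA, which the longer element contains, was in 16.3% of windows and in windows of Arntl, Clock, Nr1d2 and Per1. No member window held the other D-box TTACGTAA (0.119% of windows), the glucocorticoid element (0.414%) or the cAMP element TGACGTCA (1.79%). A match is a run of letters and was not tested as a binding site.

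In VP the clock gene called for diet was Npas2, a partner of Arntl, lower on the high fat diet. Its probe set entered the tests through control VP, where all 5 arrays exceeded the array median, while 1 of 5 HFD VP arrays and 0 of 9 DLP arrays did. A gene that passes the filter through its high group had to differ, so its call is given as a description with an uncertain size. Per2 and Per3, on the repressing side, had higher means on the high fat diet without passing the threshold. At an unadjusted p under 0.05 there were 4 of the 10 genes, these 3 and Nr1d2, against 15.2% of all genes. Means of the other 6 genes differed by 0.22 or less. All tests are from limma, with Benjamini-Hochberg adjustment over all genes tested and a threshold of 0.05. One of the 10 genes passed, in the lower direction, where 1.11% of all genes tested did. The groups did not overlap for 2 of 10, Per2 and Npas2, against 2.58% of all genes. The selection of Npas2 through control VP bears on this count too.

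Npas2 read 2.15, 2.33, 2.21, 2.45 and 2.07 on the control VP arrays. On the HFD VP arrays it read 1.11, 1.72, 1.93, 1.69 and 1.43. Every HFD array lay below every control array, and 4 of the 5 HFD arrays lay below the median of all probe sets, 1.85, so Npas2 was weak there and no fold is given. The difference was -0.66 ± 0.13 (SE, 95% interval -0.94 to -0.38), with an adjusted p of 0.0235 by limma and an exact two-sided permutation p of 0.0079, the smallest that 5 arrays against 5 can give. With no filter the adjusted p was 0.0316. The call was lost without HFD VP 5 (limma adjusted p = 0.051), with a separate weight for each lobe (0.0773) and with the VP arrays fitted alone (0.19). Its second probe set was never above the array median and differed by -0.00.

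Per2, a core repressor that pairs with CRY proteins, read 3.48, 3.41, 3.47, 3.27 and 3.57 on control VP arrays. With the high fat diet the VP values were 4.03, 3.58, 3.71, 3.90 and 3.79. The groups did not overlap, though only 0.01 separated the highest control array from the lowest HFD array. The difference was 0.36 ± 0.11 (95% interval 0.13 to 0.60), with a limma adjusted p of 0.123 and an exact permutation p of 0.0079. The other probe sets of Per2 differed by 0.35 and 0.17.

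Per3, the third Period gene, read 4.66, 4.14, 3.78, 4.09 and 4.23 on control VP arrays and 4.68, 4.67, 4.36, 5.08 and 4.85 on HFD VP arrays. One control array, number 1, was within the HFD range, and the other 4 were below all HFD arrays. The difference was 0.55 ± 0.14 (95% interval 0.26 to 0.84), a limma adjusted p of 0.0553 and an exact permutation p of 0.0159. It passed without control VP 1 or without HFD VP 3. With a filter at the 75th percentile (limma adjusted p = 0.0402) and with cyclic loess (0.048) it passed as well. It did not pass with the mean of its probe sets (0.198) or with the VP arrays fitted alone (0.292). The other 4 probe sets past the filter gave smaller values, 0.11 to 0.23.

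Of the remaining activators, Arntl had 2.12 to 2.53 on control and 1.77 to 2.74 on HFD arrays, a difference of -0.22 ± 0.17. Clock, the usual partner of Arntl, differed by -0.01 ± 0.10 (95% interval -0.22 to 0.19) on its brightest probe set. Its other probe sets gave -0.31 (95% interval -0.55 to -0.07, limma adjusted p = 0.213 in the fit of all probe sets), -0.22 and 0.08, and none of them passed. The repressors Per1 and Cry1 differed by -0.07 each. Neither of the 2 REV-ERB genes passed, with 0.01 for Nr1d1 and 0.26 ± 0.11 for Nr1d2, whose limma adjusted p was 0.257. Dbp, a transcription factor driven directly by the clock, varied widely within both VP groups, from 4.59 to 5.54 on control and from 4.66 to 5.93 on HFD arrays, and differed by 0.14 ± 0.21.

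**Figure D1:**
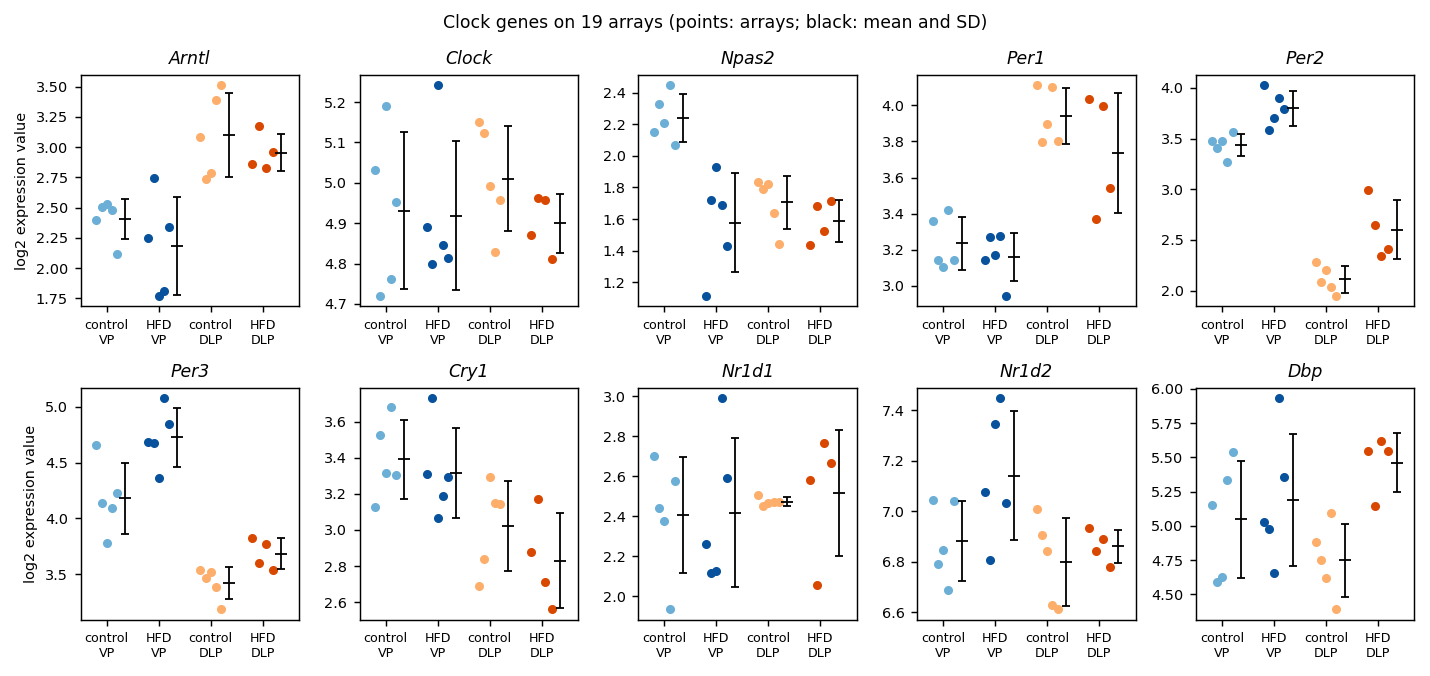
Expression of the 10 clock genes (log2, vertical axes) on each array (points) of the 4 diet and lobe groups, with the mean and SD in black, n = 5, 5, 5 and 4. Npas2 in HFD VP sits below control VP, Per2 is higher with HFD in VP and in DLP without overlap, and Dbp is higher on the high fat diet in DLP alone without overlap.

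In DLP no clock gene passed the threshold, and neither did any other gene, 0.0% of 11728, with limma. At an unadjusted p under 0.05 there were 2 of the 10 clock genes, Per2 and Dbp, and 5.64% of all genes. The 3 clock genes Per2, Per3 and Dbp had groups that did not overlap, against 3.15% of all genes, and all were higher on the high fat diet.

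Dbp read 4.88, 4.75, 4.62, 5.09 and 4.39 on the control DLP arrays and 5.54, 5.14, 5.62 and 5.55 on the HFD DLP arrays. The HFD arrays all lay above the control arrays, one of them, HFD DLP 2, by 0.05 only. The mean difference of 0.71 ± 0.22 (95% interval 0.25 to 1.18), or 1.64-fold, was the largest diet difference of any clock gene, with a limma adjusted p of 0.742 and an exact permutation p of 0.0159, the smallest that 5 arrays against 4 allow. A second Dbp probe set differed by 0.63 in the same direction.

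Per2 read 2.28, 2.08, 2.20, 2.03 and 1.95 on control DLP arrays and 2.99, 2.64, 2.34 and 2.42 on HFD DLP arrays. Its difference was 0.49 ± 0.12 (95% interval 0.24 to 0.74), with a limma adjusted p of 0.501 and an exact permutation p of 0.0159. The other Per2 probe sets, both weaker, gave 0.14 and 0.09. Per3 read 3.54, 3.47, 3.52, 3.39 and 3.19 against 3.83, 3.60, 3.78 and 3.54, a difference of 0.26 ± 0.15, and only 0.0016 separated the highest control array from the lowest HFD array. Its other 4 probe sets past the filter gave 0.12 to 0.31.

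The other 7 genes had overlapping DLP groups. Npas2 differed by -0.12 ± 0.14, with all 9 arrays below the array median. Per1 differed by -0.21 ± 0.13, Cry1 by -0.19 ± 0.15, Arntl by -0.15 ± 0.18 and Clock by -0.11 ± 0.10. Nr1d1 and Nr1d2 differed by 0.04 and 0.06. On the 5 control DLP arrays Nr1d1 read 2.45 to 2.51, whereas the 4 HFD arrays spread from 2.06 to 2.77.

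**Figure D2:**
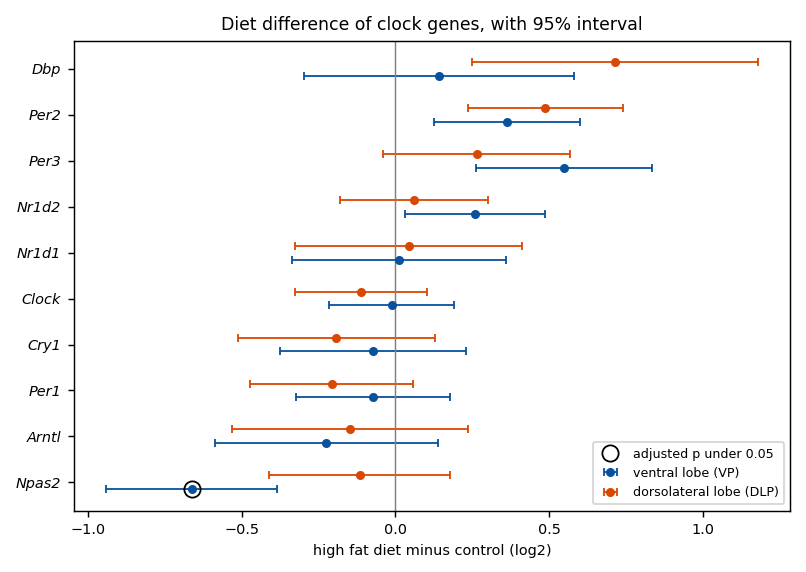
Difference between diets (HFD minus control, log2, horizontal axis) of each clock gene in VP (blue) and DLP (orange), with the 95% interval from limma and a ring where the adjusted p is under 0.05. Per2 lies at 0.36 in VP and 0.49 in DLP, and only Npas2 in VP, at -0.66, carries a ring.

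Each clock gene had the same sign of diet difference in both lobes, 10 of 10, where 53.3% of all genes did. The 2 comparisons share no array, but the lobes may come from the same mice. Genes of one loop are not independent of each other, so the count is a description. Some signs rest on differences smaller than their SE, such as Nr1d1 (0.01 and 0.04) and Clock in VP (-0.01). A weaker Clock probe set had opposite signs, -0.31 in VP and 0.05 in DLP. Per2 was the only clock gene whose diets did not overlap in either lobe, as was the case for 12 genes or 0.102% of all tested. The median size of the difference, whatever its sign, was 0.183 for the clock genes and 0.104 for all genes in VP. In DLP the corresponding medians were 0.169 and 0.0778.

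The diet difference itself was compared between lobes. None of the 10 genes passed, where 0.00853% of all genes, a single gene, did. For Npas2 the diet difference was -0.12 in DLP and -0.66 in VP, so DLP minus VP gave 0.55 ± 0.19 (limma adjusted p = 0.462). This comparison includes control VP, through which Npas2 passed the filter, so it is subject to the same selection. For Dbp the DLP difference exceeded that in VP by 0.57 ± 0.31 (limma adjusted p = 0.63). The interval for Per2, -0.22 to 0.47, allowed a difference between lobes about as large as the diet difference in VP.

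Averaged over the lobes, Per2 rose by 0.43 ± 0.08 on the high fat diet (95% interval 0.25 to 0.60, limma adjusted p = 0.0452), 1 of 10 clock genes to pass where 0.119% of all genes did. At an unadjusted p under 0.05 there were 4 of 10, against 11.8%. These were Per2, Per3, Dbp and Npas2, and the average of Npas2 is subject to its selection through control VP. This average treats the lobes as independent, which arrays from shared mice are not. With the replicate number within diet as a random block, the call was lost (limma adjusted p = 0.0565). Per2 passed in 3 of 19 fits that left out 1 array (the array left out being HFD DLP 3, HFD VP 2 or control VP 5). Over all 19 fits the highest limma adjusted p was 0.0943. With the mean of its 3 probe sets in place of the brightest, the difference was 0.27 and the adjusted p 0.136. Per3 averaged 0.41 ± 0.10 (limma adjusted p = 0.0906), Dbp 0.43 ± 0.15 (0.26) and Npas2 -0.39 ± 0.10 (0.0954).

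Sizes depend on the offset inside the deposited logarithm, taken here as 1. With 16 in its place, the VP differences became -0.13 for Npas2, 0.16 for Per2 and 0.32 for Per3, and all 3 then passed in VP, with limma adjusted p-values of 0.013, 0.0499 and 0.0467. The Dbp difference in DLP became 0.49, and that of Per2 in DLP 0.13. The directions of these 5 differences did not change, and fold changes of weak probe sets such as Npas2 are therefore uncertain in size.

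Summed levels of markers of other cells and of stress also differed by diet in DLP, beside Per2, Per3 and Dbp. The summed level of 7 smooth muscle markers was 11.20 to 11.39 on control and 11.42 to 11.55 on HFD DLP arrays, and all 7 genes had a higher mean on the high fat diet in each lobe. The summed level of 9 of 10 temperature-responsive genes, mostly heat shock chaperones, was 10.75 to 10.98 on control and 10.44 to 10.71 on HFD DLP arrays. In VP that sum overlapped, at 10.60 to 10.81 against 10.18 to 10.62, as did that of the adipocyte markers, at 5.11 to 5.88 against 4.66 to 5.13. All 6 nerve markers had a lower mean on the high fat diet in DLP, with a median difference of -1.01, and their summed level was 3.85 to 7.68 on control and 4.15 to 5.04 on HFD DLP arrays, which overlap. No single gene of these lists passed for diet in either lobe, and their part in the clock gene differences was not tested.

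Between the lobes the clock genes differed far more than between diets. On the control diet 6 of 10 passed, 2 higher and 4 lower in DLP, where 55.0% of all genes passed, 28.2% higher and 26.8% lower. Groups did not overlap for 5 of 10 on this diet, against 39.3% of all genes. Npas2, among these 5, entered the tests through control VP. The share of clock genes that passed was thus near that of genes at large. Per2 was 2.51-fold lower and Per3 1.69-fold lower in DLP, whereas Per1 was 1.63-fold higher and Arntl 1.62-fold higher.

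The 3 Period genes did not move as one. From the arrays already given, control Per2 read 3.27 to 3.57 in VP and 1.95 to 2.28 in DLP, a difference of -1.33 ± 0.11 (limma adjusted p = 6.29e-09). Per3 differed by -0.76 ± 0.14 (limma adjusted p = 0.000103). Per1 went the other way: it read 3.36, 3.14, 3.10, 3.42 and 3.15 in control VP and 4.11, 3.79, 3.89, 4.10 and 3.80 in control DLP, with a difference of 0.71 ± 0.12 (limma adjusted p = 4.94e-05). The Per1 groups were separated by 0.38. All other probe sets of Per2 (-0.43 and -0.52) and all 4 further probe sets of Per3 past the filter (-0.78 to -0.39) were lower in DLP too.

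The activating genes were split as well. Arntl read 2.40, 2.51, 2.53, 2.48 and 2.12 in control VP and 3.08, 2.73, 2.79, 3.39 and 3.51 in control DLP. It was higher in DLP without overlap, by 0.69 ± 0.17 (limma adjusted p = 0.00211), and a second probe set gave 0.32 with an adjusted p of 0.0716 in the fit of all probe sets. Npas2 was lower in DLP, -0.53 ± 0.13 (limma adjusted p = 0.0021), at 1.45 to 1.84 against 2.07 to 2.45 in VP. Since it passed the filter through control VP alone, this difference is subject to the same selection, and without it 5 of the other 9 clock genes were called. With no filter the adjusted p was 0.00297. Clock differed by 0.08 ± 0.10, but 1 of its 3 other probe sets was higher in DLP by 0.41.

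Cry1, the CRY gene measured here, read 3.12, 3.53, 3.32, 3.68 and 3.30 in control VP and 2.69, 2.84, 3.29, 3.15 and 3.14 in control DLP. It was lower in DLP by a margin that just passed, -0.37 ± 0.14 (limma adjusted p = 0.0368). The groups overlapped, and the call was lost in 4 of 19 fits with 1 array left out: without control VP 2, control VP 4, control DLP 1 or control DLP 2, at most 0.111. Nr1d1 (0.07), Nr1d2 (-0.08) and Dbp (-0.30 ± 0.21) did not pass. The 2 Dbp probe sets disagreed in size, since the weaker one gave -0.78, and so did the 2 of Nr1d2, whose weaker one gave -0.59; averaged over probe sets both genes passed, at -0.54 (limma adjusted p = 0.0212) and -0.34 (0.00742).

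On the high fat diet the lobes were again 6 of 10 apart, 2 higher and 4 lower in DLP, against 52.9% of all genes (26.8% higher and 26.1% lower). Groups did not overlap for 4 of 10, against 44.4% of all genes. Per2 differed by -1.20 ± 0.12 (limma adjusted p = 6.54e-08), Per3 by -1.04 ± 0.15 (5.43e-06), Per1 by 0.57 ± 0.13 (0.00078) and Arntl by 0.77 ± 0.18 (0.00152). A second Arntl probe set gave 0.20, with a limma adjusted p of 0.298 in the fit of all probe sets. In that fit weaker Clock probe sets passed at 0.39 (limma adjusted p = 0.0141) and 0.37 (0.00102), while the brightest gave -0.02. The Dbp probe sets differed in sign, 0.27 for the brighter and -0.30 for the weaker. Cry1 differed by -0.49 ± 0.15 (limma adjusted p = 0.0116), which was lost without HFD DLP 4. Nr1d2 differed by -0.28 ± 0.12 (0.0469), and 11 of the 19 fits with 1 array left out lost that call, at most 0.135. Npas2, at -0.53 between the control lobes, differed by 0.01 ± 0.14 between the HFD lobes. The test of that change is the comparison of diet differences given above, with its selection through control VP.

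With an offset of 16 the control lobe differences shrank to -0.42 for Per2, -0.37 for Per3, 0.32 for Per1, 0.22 for Arntl, -0.14 for Cry1 and -0.11 for Npas2, and all kept their sign and passed. The mean of all Per2 probe sets gave -0.76. Markers of other cells also differed between the control lobes, where 28.2% of all genes were called higher in DLP and 26.8% lower. All 6 nerve markers, 5 of 7 smooth muscle markers and all 4 basal epithelial markers were called higher, and 4 of 7 macrophage markers lower. Of 6 fibroblast markers 1 was called higher, and of 5 luminal markers tested 1 was higher and 2 lower. No endothelial marker was called. The summed nerve level was 3.85 to 7.68 on control DLP arrays and 2.74 to 3.39 on control VP arrays. The difference between the 3′ and 5′ probe sets of Gapdh, a sign of RNA quality, also separated the control lobes, at -0.26 to -0.03 in VP and -0.49 to -0.36 in DLP, and overlapped between the HFD lobes, at -0.41 to -0.19 and -0.54 to -0.35. Their part in the clock gene differences was not tested.

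**Figure D3:**
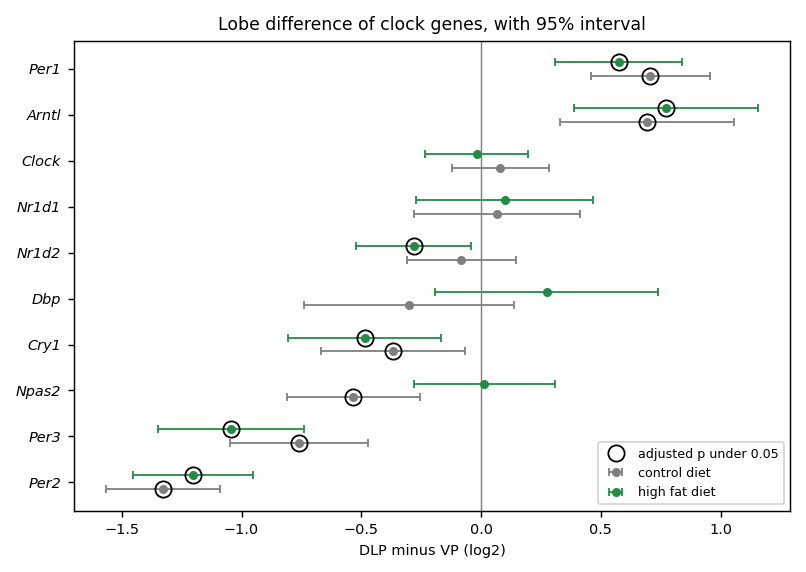
Difference between lobes (DLP minus VP, log2, horizontal axis) of each clock gene on the control diet (grey) and the high fat diet (green), with the 95% interval from limma and a ring where the adjusted p is under 0.05. Per2 (-1.33 and -1.20) and Per3 lie below 0 and Per1 and Arntl above it on both diets, and Npas2 is ringed on the control diet alone.

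Because the clock moves all its genes on a schedule, their variation among arrays of the same group was examined next. The within-group SD of Dbp was 0.372, larger than that of 94.1% of all genes, whose median was 0.169. Arntl (0.297, 88.7%), Nr1d1 (0.282, 86.9%), Cry1 (80.5%) and Per3 (78.1%) were also in the upper range, while Per2 (57.2%), Nr1d2 (57.5%) and Clock (42.5%) were near the middle. Ranks differed by lobe: Per2 stood at 29.1% in VP and 83.5% in DLP, Per1 at 26.2% and 89.1%, and Per3 at 83.3% and 53.5%.

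Deviations from the 4 group means were then correlated for the 45 pairs of clock genes over 19 arrays, with permutation p-values from 100000 shufflings within groups. An unadjusted p under 0.05 was found for 10 pairs. The share among pairs of all genes is not given, so this count cannot be read as particular to clock genes. One pair passed after adjustment over the 45, Arntl with Nr1d2. The pair had a Pearson r of -0.84 (permutation p = 0.00069, adjusted 0.031) and a Spearman rho of -0.83 (adjusted permutation p = 0.023), and its cause was not tested.

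The extremes came from several groups. HFD VP 2, the array with Arntl highest above its group (0.56), had Nr1d2 lowest (-0.34), and HFD VP 3 and HFD VP 4, with Arntl at -0.41 and -0.37, had Nr1d2 at 0.21 and 0.31. On HFD VP 3 and HFD VP 4 the brightest Arntl probe set read 1.77 and 1.81, below the array median of 1.85, so Arntl was weak there. In control DLP, arrays 4 and 5 had Arntl at 0.29 and 0.41 and Nr1d2 at -0.17 and -0.19. Without the 2 arrays farthest in Arntl, r was -0.76. Within VP r was -0.92 (exact permutation p = 0.0028, adjusted 0.0641), and within DLP -0.73 (exact permutation p = 0.124, adjusted 0.54), so the direction was the same in each lobe and neither lobe passed alone.

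The pair stayed past the threshold in 13 of 19 sets with 1 array left out, with r from -0.88 to -0.77. It did not pass without control VP 5, HFD VP 2, HFD VP 4, HFD VP 5, control DLP 4 or control DLP 5, with an adjusted permutation p of at most 0.237. With the mean of each gene's probe sets, r fell to -0.27 (adjusted permutation p = 0.593). The relation therefore rests on the brightest probe set of each gene. The second probe set of Nr1d2 exceeded the median of its array on 10 of 19 arrays, and that of Arntl on 12.

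**Figure D4:**
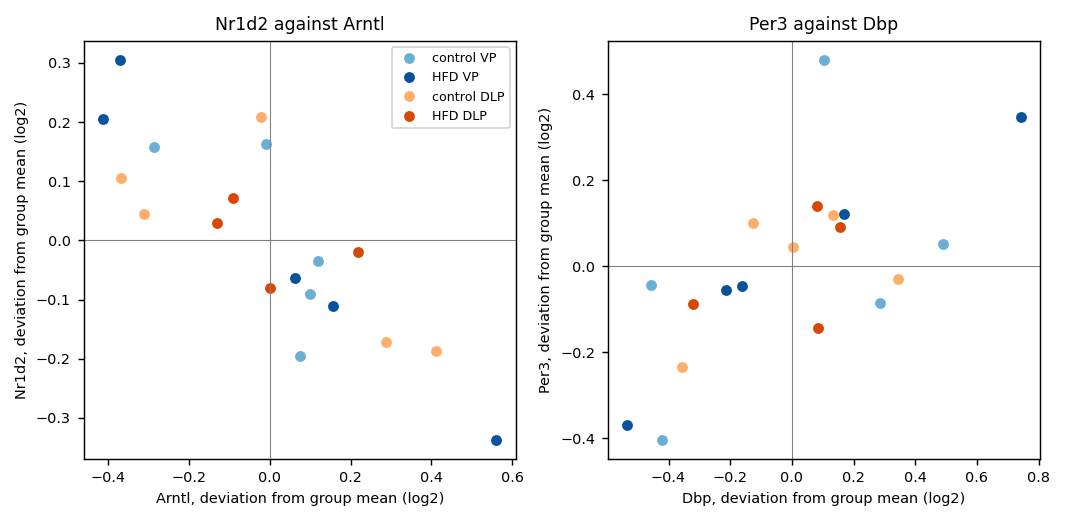
Deviations from the group mean (log2) on each of 19 arrays, coloured by group, for Nr1d2 against Arntl (left) and Per3 against Dbp (right). The left panel slopes down in both lobes (r = -0.84), and the right panel slopes up with more scatter (r = 0.65).

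Over all 19 arrays none of the other pairs passed by r or rho. Cry1, like Arntl, ran against Nr1d2 (r = -0.69, adjusted permutation p = 0.059) and against Nr1d1 (-0.57), and Cry1 with Arntl gave 0.55. Per3 ran with Dbp (0.65, adjusted permutation p = 0.157) and with Nr1d1 (0.61), Nr1d1 ran with Dbp (0.56), and Per2 ran with Nr1d2 (0.50). Clock, in contrast to its partner, ran with Nr1d2 (0.58) and against Cry1 (-0.54), and with Arntl it gave -0.44. Of 45 pairs, 22 were positive, and Per1 had no pair beyond 0.40. Within VP 6 pairs and within DLP 7 pairs had an unadjusted exact permutation p under 0.05, and none passed adjustment by Pearson r. The share among pairs of all genes is not given for these counts either. By Spearman's rho, Cry1 with Nr1d2 passed within VP, with a rho of -0.92 (exact permutation p = 0.00104, adjusted 0.0469). Its Pearson r within VP was -0.88 (adjusted exact permutation p = 0.0641). Within DLP its rho was -0.45 (exact permutation p = 0.268, adjusted 0.738). Without the 2 arrays farthest from the median, r was 0.64 for Per3 with Dbp, -0.64 for Cry1 with Nr1d2, 0.62 for Per2 with Nr1d2, 0.62 for Nr1d1 with Dbp, 0.65 for Clock with Nr1d2 and -0.62 for Cry1 with Clock. It shrank to 0.40 for Per3 with Nr1d1, 0.35 for Cry1 with Arntl and -0.38 for Cry1 with Nr1d1.

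**Figure D5:**
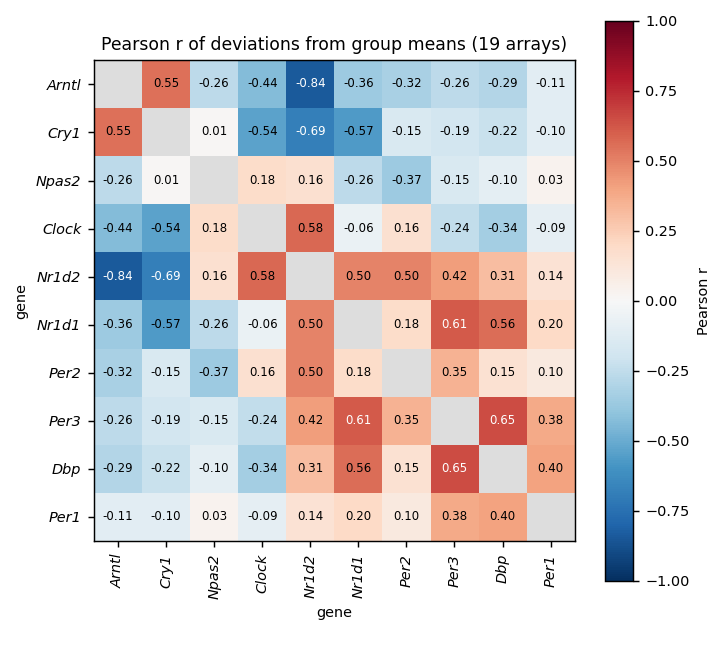
Pearson r of deviations from group means over 19 arrays for each pair of clock genes (colour and printed value, red positive and blue negative). The darkest cells are Arntl with Nr1d2 (-0.84), Cry1 with Nr1d2 (-0.69) and Per3 with Dbp (0.65).

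The same measure over all genes gave the patterns most like Arntl and Dbp, as a description with no test. Of 11727 other genes, Nr1d2 had the lowest r with Arntl, followed by Rps20 (-0.81), a ribosomal protein gene, Gpat3 (-0.78), Reep3 (-0.78) and Tgfa (-0.77). The highest were Rundc3a (0.85), C2cd3 (0.84), Arsb (0.84), Selenot (0.82) and Mtmr10 (0.82), and Cry1 ranked 420. For Dbp the highest were Gphn (0.83), Chm (0.81), Zfp560 (0.81), Asxl2 (0.80) and Cirbp (0.80), which encodes a cold-inducible RNA binding protein. Per3 ranked 69 and Nr1d1 ranked 215 with Dbp. The lowest with Dbp were Luzp1 (-0.83), Slc15a4 (-0.80), Banp (-0.78), Cenpq (-0.76) and Srsf6 (-0.76). Some of these rested mainly on VP: r with Dbp was -0.92 in VP and -0.11 in DLP for Cenpq. It was -0.88 and -0.31 for Srsf6 and 0.92 and 0.36 for Zfp560, whereas Gphn had 0.83 and 0.86. All these points share the 19 arrays.

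If equal numbers marked lobes of the same mouse, clock deviations could be shared by the lobes, so the 9 VP and DLP arrays of equal diet and number were set against each other. No gene passed. Cry1 was highest, with r = 0.62 (exact permutation p = 0.108, adjusted 0.998) and rho = 0.70 (exact permutation p = 0.0635, adjusted 0.635). Without the 2 farthest pairs its r was 0.29. The other 9 genes ran from -0.26 for Per3 to 0.38 for Per2, with Dbp at 0.03 and Arntl at -0.00.

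Further genes of the loop were read from lists of clock partners, clock protein kinases and ubiquitin ligases, and clock output genes. None was called for diet in either lobe or on average. Of the 9 partners 5 could be tested. Ciart, a repressor of the loop, had diet differences of 0.33 ± 0.14 in VP (limma adjusted p = 0.252) and 0.35 ± 0.15 in DLP (0.84), and Cry2, the other CRY gene, had 0.22 and -0.13. Rorb had -0.39 in VP and 0.00 in DLP. Arntl2, Timeless and Bhlhe41 did not pass the filter. Between the control lobes 2 of 5 partners were called, against 55.0% of all genes. Both were lower in DLP: Rorb, a nuclear receptor of the ROR family, at -0.65 and Ciart at -0.33.

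Of 8 kinases and ligases that set the life of clock proteins, 6 were tested. Csnk1d, a kinase that phosphorylates PER proteins, had the smallest p in VP, with 0.23 ± 0.07 (limma adjusted p = 0.11), but differed by 0.01 in DLP. Btrc, a ligase subunit that marks PER proteins for breakdown, differed by 0.16 and 0.11, and Gsk3b, another clock kinase, by 0.07 and -0.06. Between the control lobes 3 were called higher in DLP and 1, Csnk1e (-0.33), lower, where 55.0% of all genes were called.

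All 8 output genes were tested. Hlf, a relative of Dbp, had diet differences of 0.51 ± 0.14 in VP (limma adjusted p = 0.0689), 0.36 ± 0.15 in DLP (0.817) and 0.44 ± 0.10 on average (0.0886). Nfil3, which competes with these factors for D-boxes, had -0.44 in each lobe (limma adjusted p = 0.135 and 0.784) and -0.44 ± 0.11 on average (0.0906). Wee1, a cell cycle kinase, had 0.23 and 0.27. The median diet difference of the 8 was 0.27 in VP and 0.08 in DLP, against 0.01 in each lobe for all genes. Between the control lobes 3 output genes were called higher in DLP (Hlf by 1.11, Wee1 by 0.95 and Nampt by 0.82). The 3 called lower were Nfil3 (-2.41), Tsc22d3 (-1.18) and Tef (-0.86). Of all genes 55.0% were called in this comparison, 28.2% higher and 26.8% lower.

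Lists that respond to handling, stress and body temperature were read the same way, and no gene of them was called for diet. Among temperature-responsive genes Hspa8 had -0.41 in VP (limma adjusted p = 0.0914), Hsp90aa1 -0.46 in DLP (0.364) and Hsph1 -0.57 in DLP (0.501), with list medians of -0.19 and -0.29. Cirbp, which tracked Dbp above, had 0.34 in VP and 0.38 in DLP. The 8 glucocorticoid-induced genes had medians of -0.08 and -0.22, with Mt2 at -0.32 in VP, Zbtb16 at -0.20 in VP and -0.37 in DLP, and Tsc22d3 at -0.28 in DLP. The 9 immediate early genes tested had medians of -0.39 and -0.34, with SDs over 1 for Fos in 3 of the 4 groups, and Jun differed by -0.52 and Fos by -0.98 in VP, Btg2 by -0.34 and Nr4a1 by -0.51 in DLP. Their part in the clock gene differences was not tested.

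Secretion markers differed between lobes in the direction of the labels on each array, over wide ranges. The summed level of ventral secretion genes was 12.15 to 12.86 on VP arrays and 3.45 to 11.81 on DLP arrays, and that of dorsolateral secretion genes was 14.06 to 14.19 on DLP and 9.90 to 13.53 on VP arrays. Cd3e and Cd2 of T cells, Cidec of adipocytes, Svs2 of seminal vesicle and Myh4 and Tnnt3 of skeletal muscle were not above the array median on any array. Other genes of these lists were measured higher. The summed level of the seminal vesicle list ran from 0.06 to 6.62 on HFD VP and from 1.61 to 4.95 on HFD DLP arrays. That of the skeletal muscle list was 5.89 to 6.79 on VP and 6.11 to 6.72 on DLP arrays. Pearson r between arrays of a group ran from 0.964 to 0.992, and control VP 4 and HFD VP 3 had the lowest mean r with their groups, 0.976 and 0.972. Without both arrays Npas2 still passed in VP and Per3 passed as well (limma adjusted p = 0.0434), the averaged Per2 difference did not (0.0556), and Arntl with Nr1d2 still passed.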

How the data were processed

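Biotin-labelled total RNA of 19 lobe samples was measured on 3′ expression arrays, 1 sample per array, processed with MAS5 per the submitters' processing notes. The authors deposited values that run from 0 to 3.99 and that were read as log10. The base was inferred from hybridization controls, whose mean deposited values rose by 0.535 and 0.735 between steps, where the nominal log10 concentrations differ by 0.523 and 0.699. Each array has the same set of values, so a value reflects the rank of a probe set. The sources used here do not give the step that did this, and a shift common to most genes would not show. Arrays give no read depth, and their number limits the precision.

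The deposited log10 values were converted to log2 with an offset of 1, with no further normalization. Of 45101 probe sets 64 were controls, 34945 had 1 symbol in the platform annotation, 932 several and 9160 none. Symbols were updated for 34741 through a RefSeq table of GRCm38.p6. A probe set was kept when above its array's median on at least 4 arrays (24867 kept), and the one with the highest mean stood for a gene (11728 genes). The 4 group means were fitted to 19 arrays by lmFit of limma 3.58.1 (R 4.3.3), with eBayes and its trend option, two-sided, Benjamini-Hochberg adjusted. Scripts were tested on simulated data.

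Samples were grouped by their titles. Equal replicate numbers were not used to pair samples in the main fit. Over all genes, deviations of equal-numbered arrays correlated at -0.10 to 0.46 between diets in VP (3 of 5 pairs over 0.1). The range was -0.15 to 0.17 between diets in DLP (1 of 4) and -0.07 to 0.19 between lobes (4 of 9). Arrays of unequal number were not compared, so these values cannot decide whether equal numbers mark a shared mouse or batch. Named were all 10 members, the 2 genes of smallest p of each further list per diet contrast where none passed, and the 5 genes highest and lowest in r with Arntl and Dbp; other list genes named were chosen after their values were seen. The members and lists were chosen with earlier results of these data known. Alternatives changed the offset, the filter, the probe set rule, the prior, array or lobe weights, the block, the arrays used and the normalization. The anterior lobe that the labels name was not analysed here.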

Additional observations from a re-analysis of the deposited data

Results flagged for a closer look

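Each clock gene was examined in each of the 4 groups for an array far from the others, by Dixon's criterion at the 95% level, which flags about 1 in 20 groups by chance. Of 40 gene and group combinations 2 were picked out, and 2 would be expected by chance. Clock read 5.24 on HFD VP 3, where the other 4 arrays of the group read 4.80 to 4.89. HFD VP 3 was also the array with the lowest mean correlation with its group. Dbp read 5.14 on HFD DLP 2, below the other HFD DLP arrays at 5.54 to 5.62 and above the highest control DLP array, 5.09. No explanation of either value was tested.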

How the results depend on the processing

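Of 115 single results (a gene in a comparison, or a pair), 1 called value turned its sign: averaged over its probe sets, Clock was higher in HFD DLP than in HFD VP by 0.25 and passed, against -0.02 for the brightest probe set. The count of clock genes past the threshold for diet in VP was 1. It was 3 with an offset of 16, 0 with 1 weight per lobe or with the lobe fitted alone, 2 without control VP 4 and HFD VP 3 or with cyclic loess, and 0 to 2 with 1 array left out. With a filter at the 75th percentile it was again 1, but the gene called was Per3, and Npas2 was not tested. Over all genes the VP count of 130 became 21, 0 and 47 with 1 weight per lobe, the lobe alone and array weights. For the average of both lobes the count was 1. It was 0 with an offset of 16, no filter, the mean of probe sets, a prior without a trend, 1 weight per lobe, a random replicate block within diet, or without control VP 4 and HFD VP 3, and 3 with array weights, and it ranged from 0 to 1 with 1 array left out. The control lobe count of 6 became 3 with a filter at the 75th percentile, which left the other 3 genes untested, 8 with the mean of probe sets (Nr1d2 and Dbp added), and 5 to 6 with 1 array left out. The HFD lobe count of 6 was 7 with the mean of probe sets (Clock added), and ran from 4 to 6 with 1 array left out. The pair count of 1 was 0 within VP, within DLP and with the mean of probe sets, 5 without control VP 4 and HFD VP 3, 2 with cyclic loess and 0 to 5 with 1 array left out (5 without HFD VP 3, 3 without control VP 4 or control DLP 3). Equal numbers were not used to pair samples in the main fit. With the replicate block the diet counts stayed at 1 in VP, 0 in DLP and 1 on average, and the pair count was 2, Per3 with Dbp (adjusted permutation p = 0.0101) and Arntl with Nr1d2. The counts for diet in DLP and for its difference between lobes were 0 under all settings run. Values near the array median, above all Npas2, are limited by signal over background.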
